A study of Homo sapiens with 8 samples.

Results

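The genes described here encode the proteasome, the protein-degrading machine of the cell, in renal cell carcinoma (RCC) cells cultured with or without branched-chain amino acids (BCAA). They are the protein-coding genes whose symbols start with PSMA, PSMB, PSMC, PSMD, PSME, PSMF or PSMG, with PSMB8 and PSMB9 left out. The annotation held 48 such genes, and 45 of them were listed in both tables, among 25431 genes for 769-P and 24190 for CAKI-1. PSMA8, PSMB3 and PSMB11 were listed in neither table and were not analysed here. PSMB3 encodes a subunit of the standard beta ring, so the core described below is not complete. The 45 members comprised 14 genes of the core particle, 17 of the cap, 7 assembly chaperones, 5 activators or inhibitors, and 2 genes that share the name but are no subunit (PSMC3IP and PSME3IP1). Every member passed the filter on low values, with a mean of at least 193 in 769-P and 112 in CAKI-1.

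RNA was sequenced from 769-P and CAKI-1, established human lines labelled as clear cell RCC, each a single line, with 2 libraries per condition and 8 in all. Cells with BCAA were given 0.17 mM valine together with isoleucine and leucine at 0.38 mM each, and cells without BCAA were given none of the 3, both over 16 h. Neither line carried a genetic change made by the study in these samples, and both conditions shared a medium made from amino acid-free powder with dialyzed serum. The lines were kept in different media for routine culture. The labels do not say whether the 2 libraries of a condition came from separate cultures, so the p-values measure only the spread between these libraries.

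The proteasome is a barrel of stacked rings that carries a cap at one or both ends. Its outer rings are built from alpha subunits (PSMA genes) that gate the channel, and its inner rings from beta subunits (PSMB genes), 3 of which cut the protein chain. The base of the cap holds 6 ATPases (PSMC genes) that unfold the substrate, and the lid (most PSMD genes) removes its ubiquitin. Dedicated chaperones (PSMG1 to PSMG4 for the core; PSMD5, PSMD9 and PSMD10 for the base) put the parts together and leave. Alternative caps (PSME genes) open the barrel without ubiquitin, and PSMF1 encodes an inhibitor of the core. NFE2L1 is a transcription factor known to raise proteasome subunit genes together through an antioxidant response element (ARE) in their promoters. BCAA are needed for protein synthesis, while proteasomal breakdown returns amino acids to the cell.

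The promoters of 5 members are shown because they carry a match to the ARE core, or lack one, among genes described below as higher in both lines or lower in one. Each run is the 100 bases before the RefSeq start (GRCh38.p14), 5′ to 3′ on the strand of the gene, and capitals mark the letters TGACNNNGC on either strand.
PSMD3 (lid), chr17:39980707-39980806, plus strand: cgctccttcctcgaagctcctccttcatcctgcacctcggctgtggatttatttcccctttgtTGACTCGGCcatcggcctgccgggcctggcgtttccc
PSME4 (alternative cap), chr2:53970994-53971093, minus strand: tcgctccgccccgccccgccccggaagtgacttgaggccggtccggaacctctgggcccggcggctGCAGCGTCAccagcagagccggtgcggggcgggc
PSMG2 (core chaperone), chr18:12658638-12658737, plus strand: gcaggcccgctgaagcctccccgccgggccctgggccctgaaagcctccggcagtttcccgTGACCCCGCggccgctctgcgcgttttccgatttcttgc
PSMD11 (lid), chr17:32444410-32444509, plus strand: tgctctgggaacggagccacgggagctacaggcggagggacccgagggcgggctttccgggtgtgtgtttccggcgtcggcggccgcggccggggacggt
PSMA4 (alpha ring), chr15:78540305-78540404, plus strand: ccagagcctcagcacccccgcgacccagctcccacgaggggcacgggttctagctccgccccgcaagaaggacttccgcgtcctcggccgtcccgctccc
PSMD3 and PSME4 rose in both lines and carry the letters, PSMG2 carries them and fell in CAKI-1, and PSMD11 and PSMA4 rose in both lines without them. The window searched ran from 250 bases before to 50 after the start, and 39 of the 45 members were matched to it. Only the first listed start of each member was searched, while all promoters include every distinct listed window of a gene. The shares are thus not counted alike. The ARE core stood in 13.4% of all 35093 promoters, and in 4 of 26 core and cap promoters (15.4%). It was found in 0 of 10 core promoters, 4 of 16 cap promoters (PSMC4, PSMD1, PSMD3 and PSMD12), 4 of 6 assembly promoters and 3 of 5 activator or inhibitor promoters. The letters CCAAT, the box bound by NF-Y, stood in 34.6% of all promoters and in 13 of 26 core and cap promoters. A palindrome like that of nuclear respiratory factor 1 stood in 8.32% of all promoters and in 19.2% of core and cap promoters. A match is a run of letters and not a bound site, and motifs outside this window were not searched.

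The values are normalised read counts, that is reads per gene divided by 1 size factor per library, without regard to gene length. Gene bounds given below are those of GENCODE 29 on hg38, and the changes described are over whole genes. Between 30979773 and 64256834 reads per library lay on listed genes. The 769-P libraries with BCAA were the deepest (64256834 and 55829324 reads, against 39062721 and 40130258 without), so that depth and condition went together in this line. With every library thinned to 30979773 reads, 34 members were higher and 2 lower in 769-P, as many as with all reads. Replicates differed by more than sampling noise. The renal markers PAX8, VIM, KRT8 and KRT18 were present in both lines, KRT19 was at 10.6 or less in 769-P, PAX2 was listed for 769-P only, CA9 was listed for neither, and no leukocyte, endothelial or liver marker exceeded 10.3. Values are relative to the library, so a change in the number of cells with a transcript, in its amount per cell and in the RNA around it cannot be told apart.

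In 769-P, nearly all genes of the core and the cap were higher with BCAA, by a median of 38.4% for the core and 37.5% for the cap. Of the 45 members, 34 were higher with BCAA and 2 were lower (PSMF1 and PSME3IP1) by limma at an adjusted p under 0.05. Among all 22391 genes tested, 20.3% were higher and 18.2% lower (38.4% called). Well-measured genes were called more often: of the 11855 genes averaging 100 or more, a level that every member reached, 34.1% were higher and 28.9% lower (63.0% called). Above an average of 1000, a level chosen after the data were seen, 32 of 38 members were higher, beside 38.6% of all genes at that level, with 31.1% lower and 69.7% called. The members' median log2 fold change was 0.43, beside -0.02 over all genes and 0.03 over those averaging 100 or more. Together the members took 0.739% and 0.734% of the reads with BCAA and 0.543% and 0.54% without. The values with BCAA lay wholly above those without for 39 members, wholly below for 4, and overlapped for 2, while 33.6% of all genes lay wholly above and 33.5% wholly below.

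**Figure D1:**
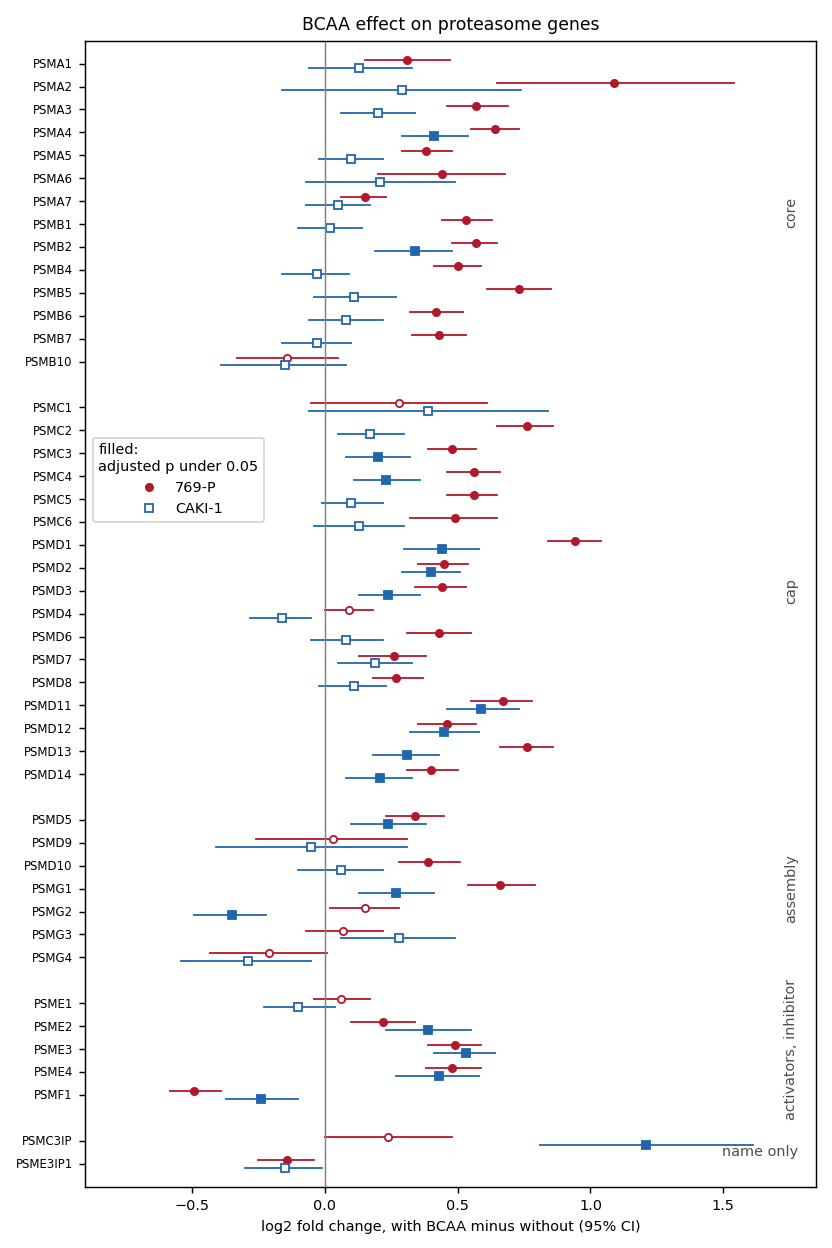
Log2 fold change (with BCAA minus without, horizontal axis) of each of the 45 members in 769-P (red circles) and CAKI-1 (blue squares), by group. Lines are 95% confidence intervals from limma, and filled symbols passed an adjusted p of 0.05. Most core and cap genes lie to the right of 0 in 769-P, with the CAKI-1 symbol nearer to 0.

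Of the 14 core genes, 13 were higher with BCAA in 769-P and none was lower, with a median log2 fold change of 0.47. All 7 alpha subunits rose, from 0.15 for PSMA7 to 1.09 for PSMA2. PSMA4 (chr15:78540405-78552419, plus strand) had values of 13160 and 13510 with BCAA and 8482 and 8599 without. Both libraries with BCAA were far above both without, and the log2 fold change was 0.64 ± 0.042 (SE, adjusted p = 1.6e-07). PSMA2 had only 222 and 306 with BCAA and 104 and 142 without. Its groups did not overlap, but its estimate was the least precise of the core (1.09, 95% CI 0.65 to 1.54), and the annotation names 3 pseudogenes after it. PSMA1, PSMA2 and PSMA6 each overlap another protein-coding model on their own strand, so their counts are uncertain. PSMA7 lost its call under 2 other scalings.

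Among the beta subunits, PSMB5, which carries the chymotrypsin-like site and is the target of bortezomib (chr14:23016543-23035230, minus strand), had values of 3254 and 3225 with BCAA and 1995 and 1910 without. The 2 conditions stood clearly apart, with a log2 fold change of 0.73 ± 0.055 (SE, adjusted p = 6.2e-07). PSMB6 and PSMB7, which carry the caspase-like and trypsin-like sites, rose by 0.42 and 0.43 on the log2 scale. The non-catalytic PSMB1, PSMB2 and PSMB4 rose by 0.53, 0.57 and 0.50. PSMB10, the trypsin-like subunit of the immunoproteasome, was the one core gene that did not pass the test. It had 641 and 705 with BCAA and 755 and 731 without, a log2 fold change of -0.14 (95% CI -0.33 to 0.05, adjusted p = 0.23). Its values were thus lower with BCAA in both libraries, where those of its standard counterpart PSMB7 were higher (12450 and 11800 against 8845 and 9150). PSMB10 overlaps another gene model on its own strand, so its count is uncertain.

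In the cap, 15 of 17 genes were higher with BCAA in 769-P and none was lower, with a median log2 fold change of 0.46. All 8 lid genes rose, and 5 of the 6 ATPase genes. PSMD1, the large scaffold of the base (chr2:231056864-231172827, plus strand), had values of 15570 and 14860 with BCAA and 7818 and 8042 without. It had the largest rise of the cap, at 0.94 ± 0.044 (SE, adjusted p = 9.7e-09). PSMC2, an ATPase, and PSMD13, a lid subunit, both rose by 0.76. PSMC2 had 10280 and 10110 with BCAA against 5827 and 6258 without. PSMD13 had 9884 and 9704 against 5922 and 5644. In both genes the gap between conditions was many times the gap between libraries of one condition.

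PSMD11, a lid subunit whose level is known to limit proteasome assembly in stem cells (chr17:32444261-32483318, plus strand), had 7866 and 7529 with BCAA and 4659 and 5049 without (log2 fold change 0.67 ± 0.052, SE). PSMD14, the enzyme that cuts ubiquitin chains from the substrate, had 13920 and 13260 against 10370 and 10190 (0.40 ± 0.043, SE). PSMD2, which receives ubiquitin carriers, had the largest values of any member (56560 and 52290 against 40350 and 39340) and rose by 0.45. The cap genes that did not pass the test were PSMC1 and PSMD4. PSMD4, a ubiquitin receptor, had 9782 and 9718 with BCAA and 9034 and 9271 without (0.09 ± 0.042, SE, adjusted p = 0.11). Of the alternatives, edgeR alone called it higher. PSMC1 had 262 and 229 with BCAA and 186 and 218 without, and is the cap gene with the lowest value per kilobase, with 13 pseudogenes named after it, so its count is uncertain. Per kilobase of exon, the cap genes of 769-P ranged from 39.8 to 9981 with BCAA around a median of 2055, and the core genes from 49.5 to 8597 around 1870.

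Of the assembly genes, 3 of 7 were higher with BCAA in 769-P and none was lower, with a median log2 fold change of 0.15 (0.10 with upper-quartile scaling). PSMG1, a chaperone of the alpha ring, had 2884 and 2894 with BCAA and 1846 and 1800 without (0.66 ± 0.056, SE, adjusted p = 1.5e-06). The base chaperones PSMD5 and PSMD10 rose by 0.34 and 0.39. PSMG2, the partner of PSMG1, had 3259 and 3510 with BCAA and 3135 and 2953 without, and did not pass the test (0.15, adjusted p = 0.059), but was called higher by edgeR and with a stricter filter (a mean of at least 10). The values of PSMG3, PSMG4 and PSMD9 were 0.07, -0.21 and 0.03 on the log2 scale, none of them called, and PSMD9 overlaps other gene models on its own strand.

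Of the activators, 3 of 4 rose in 769-P. PSME3, the nuclear activator (chr17:42824385-42843758, plus strand), had 14320 and 13410 with BCAA and 9809 and 9932 without (0.49 ± 0.045, SE). PSME4, the single-chain activator, had 7008 and 6783 against 4874 and 4987 (0.48 ± 0.046, SE), and PSME2 rose by 0.22. PSME1, which pairs with PSME2 in one ring, did not pass the test (0.06, 95% CI -0.04 to 0.17). The inhibitor gene PSMF1 (chr20:1113263-1189415, plus strand) moved against the subunits, with 6250 and 6315 with BCAA and 8746 and 8859 without. Its groups stood well apart and it fell by 0.49 on the log2 scale (SE 0.043, adjusted p = 2.4e-06). PSMF1 overlaps a processed transcript on its own strand, so its count is uncertain. The 2 genes that share only the name had values of 0.24 (PSMC3IP, not called) and -0.14 (PSME3IP1, adjusted p = 0.033, lost with edgeR).

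**Figure D2:**
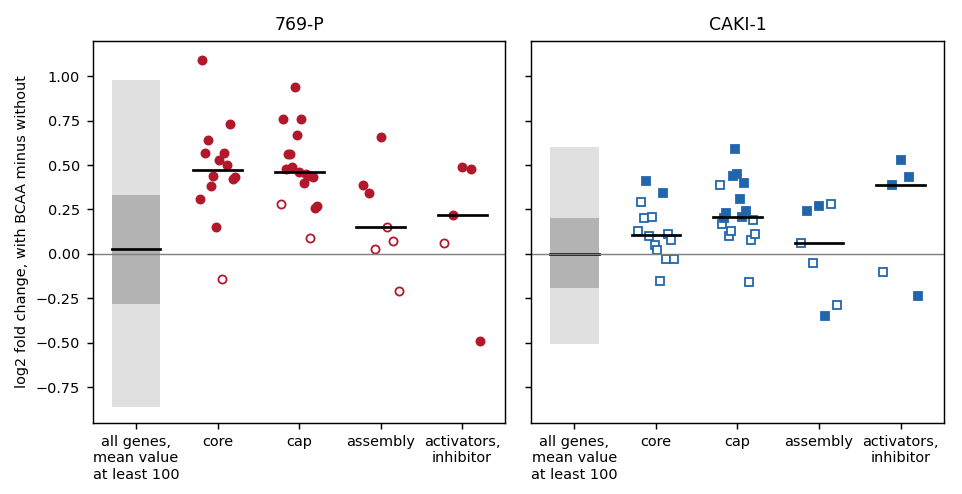
Log2 fold changes (with BCAA minus without, vertical axis) of the members of each group in 769-P (left) and CAKI-1 (right), with black bars at the group median and filled symbols for an adjusted p under 0.05. Grey boxes span the 5th to 95th (light) and 25th to 75th (dark) percentiles of all genes averaging 100 or more. The core and cap medians in 769-P (0.47 and 0.46) lie above the dark box, and in CAKI-1 the core median (0.11, or 0.05 to 0.07 under other scalings) lies within it. The boxes are drawn without rescaling, and the median of all genes moves down as well under the other scalings.

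In CAKI-1, 9 of 17 cap genes, 3 of 4 activators and 2 of 14 core genes were higher with BCAA. Of the 45 members, 17 were higher with BCAA and 2 were lower (PSMF1 and PSMG2), while 10.8% of all 21347 genes tested were higher and 9.05% lower (19.9% called). Of the 11720 genes averaging 100 or more, 18.7% were higher and 15.5% lower (34.2% called). Above an average of 1000, 16 of 36 members were higher, beside 23.2% of all genes at that level, with 16.8% lower and 40.1% called. The members' median log2 fold change was 0.19, beside -0.01 over all genes. Without any 1 of the 4 CAKI-1 libraries, no member and no gene at all was called by limma within the line. The log2 fold change then ranged from 0.54 to 0.65 for PSMD11, from -0.27 to -0.20 for PSMF1 and from -0.08 to 0.02 for PSMB4. An alternative added after seeing the data took the spread from the remaining libraries of both lines. It assumes that the lone library varies like the rest, so no count is drawn from it. The values with BCAA lay wholly above those without for 33 members and wholly below for 7, while 28.9% of all genes lay wholly above and 28.8% wholly below. Together the members took 0.568% and 0.572% of the reads with BCAA and 0.5% and 0.492% without.

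Of the 14 core genes, 2 were higher with BCAA in CAKI-1 (PSMA4 and PSMB2) and none was lower, with a median log2 fold change of 0.11. That median was 0.05 to 0.07 under the other scalings, and 0.06 without the second library with BCAA. The CAKI-1 median of all genes tested moved down too, from -0.009. It was -0.052 with median centering, -0.013 with quantile normalization and -0.062 with upper-quartile scaling. PSMA4 had 4888 and 5017 with BCAA and 3713 and 3723 without (0.41 ± 0.057, SE, adjusted p = 0.00049). PSMB2 had 7378 and 7146 against 6107 and 5424 (0.34, adjusted p = 0.0042), with its 2 libraries without BCAA further apart than those with, and its call was lost under another scaling. The catalytic subunits did not pass the test. PSMB5 had 2438 and 2673 with BCAA and 2328 and 2387 without, and its interval for the log2 fold change ran from -0.04 to 0.27. PSMB4 and PSMB7 had values of -0.03 each, and their conditions overlapped. PSMB10 was again below its level without BCAA in both libraries (488 and 566 against 574 and 596, not called).

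In the cap, 9 of 17 genes were higher with BCAA in CAKI-1 and none was lower, with a median log2 fold change of 0.21. PSMD11 had 6667 and 6155 with BCAA and 4272 and 4212 without, the largest rise of the cap in this line (0.59 ± 0.061, SE, adjusted p = 6.4e-05). PSMD12, another lid subunit, had 11040 and 10540 against 8245 and 7574 (0.45 ± 0.061, SE). PSMD1 had 9239 and 8207 against 6394 and 6446 (0.44 ± 0.065, SE). In all 3 genes each library with BCAA was above each library without. For PSMD1 and PSMD11, however, the libraries with BCAA differed from each other by more than the 2 without. PSMD2 and PSMD13 rose by 0.40 and 0.31. The ATPase genes PSMC3 and PSMC4 and the lid gene PSMD14 rose by 0.20, 0.23 and 0.21, while PSMD3 rose by 0.24. The calls of PSMC3 and PSMD14 were lost under all 3 other scalings, and that of PSMC4 with quantile normalization. PSMD4 had 10260 and 9892 with BCAA and 11430 and 11150 without. It did not pass the test (-0.16, adjusted p = 0.055) and was called lower under every other scaling, by edgeR and by DESeq2.

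Among the assembly genes of CAKI-1, PSMG1 and PSMD5 rose by 0.27 and 0.24 and PSMG2 fell. The call of PSMD5 was lost under all 3 other scalings and with thinned reads. PSMG1 had 2843 and 2951 with BCAA and 2410 and 2386 without. PSMG2 (chr18:12658043-12725740, plus strand) had 2991 and 3176 with BCAA and 3882 and 4000 without (-0.35 ± 0.062, SE, adjusted p = 0.0021). The 2 chaperones, which work as a pair on the alpha ring, thus moved in opposite directions in this line, each with conditions that did not overlap. PSMG2 overlaps CEP76 and SPIRE1 on the other strand, and whether counting used strand is not given in the sources used here. The same limit holds for PSMA2, PSMC1, PSMC3IP, PSMC5, PSMD1, PSMD13, PSME1, PSME2, PSME3, PSME4 and PSMG4. Each of them overlaps a protein-coding gene on the other strand. The activators PSME3 (10250 and 10240 against 7010 and 7222), PSME4 (4132 and 3707 against 2805 and 3028) and PSME2 rose by 0.53, 0.43 and 0.39. PSMF1 fell by 0.24, from 3712 and 3664 without BCAA to 3059 and 3208 with it (adjusted p = 0.018). PSMC3IP, which is not a subunit and is known for its part in meiotic recombination, had 267 and 240 with BCAA and 95.04 and 124.8 without. It had the largest rise of all members in this line (1.21 ± 0.182, SE), from 100 and 97 reads in the libraries without BCAA.

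**Figure D3:**
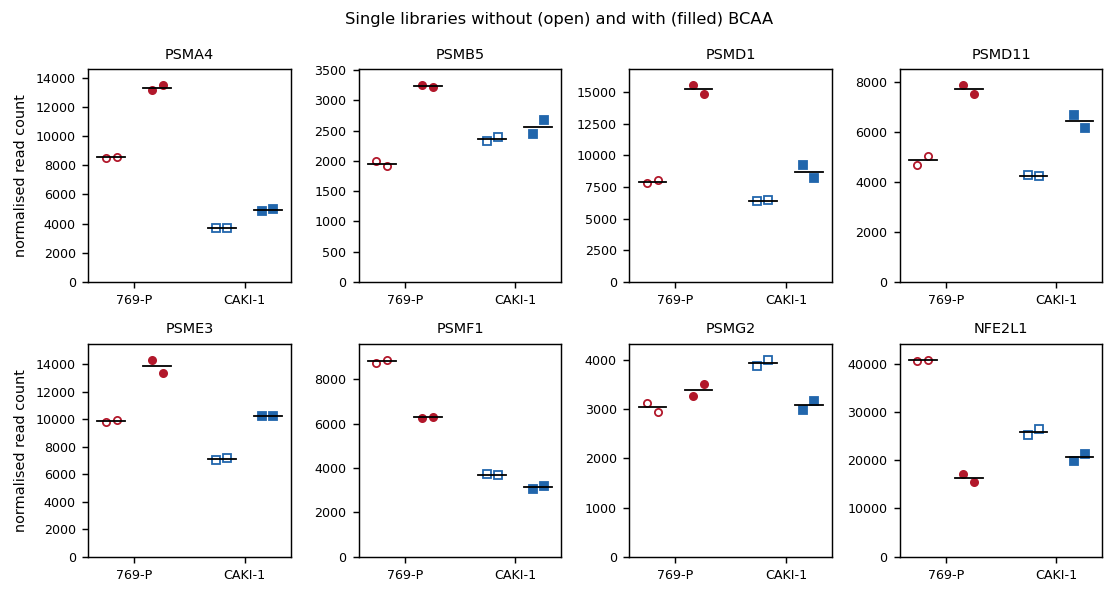
Normalised read counts (vertical axes, from 0) of 7 members and NFE2L1 in each library, with open symbols without BCAA, filled symbols with BCAA and bars at the mean of 2 libraries. PSMB5 separates by condition in 769-P (3254 and 3225 against 1995 and 1910) and little in CAKI-1, PSMD11 separates in both, and PSMF1 and NFE2L1 are lower with BCAA in both.

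Across the lines, 16 members were higher with BCAA in both and 1 (PSMF1) was lower in both, while 8.53% of the 19406 genes tested in both were higher in both and 5.83% lower in both (17.8% and 11.3% of genes averaging over 1000). The 16 were PSMA4 and PSMB2 of the core, PSMC3, PSMC4, PSMD1, PSMD2, PSMD3, PSMD11, PSMD12, PSMD13 and PSMD14 of the cap, PSMD5 and PSMG1 of the chaperones, and PSME2, PSME3 and PSME4. The cap thus gave 9 of its 17 genes to this set (52.9%) and the core 2 of its 14 (14.3%). The core share was near the 17.8% of all genes averaging over 1000, although some core genes averaged less. A further 18 members were higher in 769-P and not called in CAKI-1, and 11 of them were core genes. More genes of any kind were called in 769-P (38.4% of all tested, against 19.9% in CAKI-1). The share of all genes called higher in 769-P alone was not computed. The difference between the lines was tested gene by gene with the interaction term of a fit over all 8 libraries. Of these core genes, PSMA1, PSMA2, PSMA6 and PSMA7 showed no called difference.

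The BCAA effect was further up in 769-P than in CAKI-1 for 21 members and further down for 2, while 10.9% and 10.1% of all genes differed in these directions (21.1% either way), and 19.1% and 19.8% of genes averaging over 1000 (38.9% either way). Of the core genes, 8 of 14 differed (median difference 0.31), of the cap genes 10 of 17 (0.26) and of the assembly genes 3 of 7 (0.10), all further up in 769-P. None of the 4 activators differed. Whether the groups differ from each other in these counts was not tested. The estimate was larger in 769-P for 30 of the 31 core and cap genes. That count includes small differences that were not called, such as 0.01 for PSMB10 and PSMD12. The matching share over all genes was not computed, so the count has no background beside it.

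The largest called difference in the core was that of PSMB5 (0.62 ± 0.087, SE, adjusted p = 0.00019), followed by PSMB4 (0.53), PSMB1 (0.51) and PSMB7 (0.46). PSMA2 had a larger but less precise difference that was not called (0.81, adjusted p = 0.089). The largest called differences in the cap were PSMC2 (0.58 ± 0.072, SE, adjusted p = 7.3e-05), PSMD1 (0.50), PSMC5 (0.45) and PSMD13 (0.45). PSMG2 differed by 0.51 ± 0.085 (SE, adjusted p = 0.00077). PSMC3IP (-0.97 ± 0.219, SE) and PSMF1 (-0.25) were the 2 with the lower effect in 769-P. PSMC3IP had a smaller rise there (0.24, not called, against 1.21), and PSMF1 a larger fall. The difference of PSMF1 was lost without the first 769-P library with BCAA, either 769-P library without BCAA, or the second CAKI-1 library without BCAA.

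Some genes that rose in both lines showed no called difference. The interval of the difference was -0.10 to 0.25 for PSMD11, -0.16 to 0.18 for PSMD12, -0.10 to 0.19 for PSMD2, -0.18 to 0.11 for PSME3 and -0.13 to 0.25 for PSME4. These intervals still hold differences of up to 0.25 in log2 units, and so do not show that the lines responded alike. Across the 31 core and cap genes, the effects in the 2 lines had a Pearson r of 0.55 and a Spearman rho of 0.50, as a description across genes that share their libraries.

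**Figure D4:**
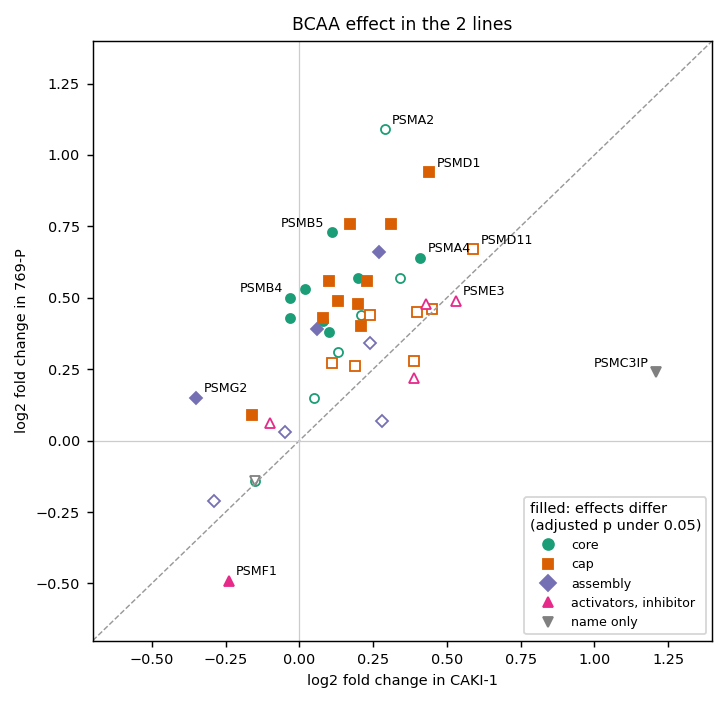
Log2 fold change of each member in CAKI-1 (horizontal axis) and 769-P (vertical axis), with shapes for the groups and filled symbols where the 2 effects differed at an adjusted p under 0.05. The dashed line marks equal effects. Most core and cap genes lie above it, some of them only slightly, PSMC3IP lies far below it, and PSME3 and PSMD11 lie near it.

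Of 34 related genes outside the rule, chosen for their roles around the proteasome, 32 were listed in both tables. In 769-P, 12 of them were higher with BCAA and 11 were lower, and in CAKI-1 9 were higher and 6 lower. Nearly all of them averaged over 1000, where 38.6% of all genes were higher and 31.1% lower in 769-P, and 23.2% and 16.8% in CAKI-1, so these counts lay near the background. The 9 that were higher in both lines, beside 8.53% of all genes and 17.8% of those averaging over 1000, were the subunit SEM1, the core chaperone POMP, the cap enzymes UCHL5, USP14 and UBE3C, the ubiquitin-activating enzyme UBA1, and the segregase VCP with its cofactors NPLOC4 and UFD1. The calls of USP14 in both lines, UBE3C in 769-P, SEM1, UBA1 and UFD1 in CAKI-1 were lost under at least 1 alternative. POMP had 9572 and 9586 with BCAA and 6849 and 6735 without in 769-P (0.50), and 6025 and 6043 against 4934 and 4876 in CAKI-1 (0.30). VCP, which extracts ubiquitin-tagged proteins from complexes and membranes, rose by 0.61 in 769-P (37650 and 36050 against 23950 and 24200) and by 0.41 in CAKI-1 (25300 and 23940 against 18770 and 18210).

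Of the 32 related genes, 4 were lower in both lines, beside 5.83% of all genes and 11.3% of those averaging over 1000. This count also lay near the background. Related genes that were lower in both lines included NFE2L1, the adaptor ECPAS and NUB1. NFE2L1 had 17160 and 15500 with BCAA and 40600 and 40720 without in 769-P. Its transcript fell by 1.32 on the log2 scale there (SE 0.048, adjusted p = 1.3e-09), in the same libraries in which core and cap genes rose. In CAKI-1, NFE2L1 had 19770 and 21320 with BCAA and 25130 and 26370 without and fell by 0.33 (SE 0.059, adjusted p = 0.0024). The fall was larger in 769-P by 0.99 (difference -0.99 ± 0.079, SE, adjusted p = 1.4e-06). Its relative NFE2L2 fell by 0.33 in 769-P and was not called in CAKI-1 (-0.06, adjusted p = 0.53). ECPAS, which holds the core and cap together, fell by 0.42 and 0.36, and NUB1, which brings ubiquitin-like proteins to the proteasome, by 0.42 and 0.33. TXNL1, a thioredoxin that sits on the cap, was higher in 769-P (0.47) and lower in CAKI-1 (-0.25, lost under 3 alternatives), a difference of 0.73 (adjusted p = 5.8e-05). Messenger RNA was measured, and neither NFE2L1 protein nor proteasome activity was.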

How the data were processed

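Total RNA from 769-P and CAKI-1 cells with or without BCAA was sequenced. Per the labels, processing used Trim Galore, TopHat2 2.1.0, SAMtools 1.3.1, HTSeq 0.6.0, DESeq and DESeq2 with hg38. The gene annotation, strand setting and options are not given in the sources used here. The deposited signal of each gene, in 1 table per line, was a whole number of reads divided by 1 size factor per library (100% whole within 0.01 reads), and these equal median-of-ratios factors over the 4 libraries of a table (0.777 to 1.319). Levels were therefore compared only within a line. Ensembl identifiers were matched to GENCODE 29 symbols (25032 of 25431 and 23881 of 24190), and PSME3IP1 by its newer symbol. All 8 columns matched a library.

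Genes with a mean of at least 1 were tested with limma 3.58.1 in R 4.3.3 (lmFit, eBayes with trend) on log2(value + 1), within each line, with Benjamini-Hochberg adjustment over all genes and calls at an adjusted p under 0.05 with no minimum fold. Fold changes on this scale understate those of low genes. The difference between lines was the interaction term of 1 limma fit over 8 libraries, over genes tested in both. An exact permutation test of 2 libraries against 2 cannot go below a two-sided p of 0.333, so none is given. Alternatives changed the pseudocount (0.1, 5), the filter (none, at least 10), the scaling (median centering, quantile, upper quartile), the block, the spread, the fold minimum (1.5), the depth (30979773 reads) and the libraries included. The recovered reads were also tested with DESeq2 1.42.0 and edgeR 4.0.16, whose quasi-likelihood test called 8794 genes in 769-P and 4397 in CAKI-1 (limma, 8605 and 4243), of them 36 members higher and 1 lower in 769-P, and 17 higher and 3 lower in CAKI-1. The fits were tested on simulated data.

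Members and lists were chosen with earlier results of these data known. Members named are those called in both lines, those that differed between lines and the largest called rise and fall of each group and line. Of the related list, those called in both lines and NFE2L1 and NFE2L2 are named, except an item that is not reported here. PSMA1, PSMA6, PSMA7, PSMB10, PSMC1, PSMD7, PSMD8, PSMD9, PSME1, PSMG3 and PSMG4 fall outside this rule and were named after their values were seen. Promoters come from RefSeq (GRCh38.p14). Every member had at least 76 reads in each library, and counting error adds to the spread between libraries for the members with the fewest reads.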

Additional observations from a re-analysis of the deposited data

Results flagged for a closer look

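The BCAA effect of 23 members differed between the lines by the interaction term of limma, and the values are differences of log2 fold change, 769-P minus CAKI-1. In the alpha ring they were 0.38 for PSMA3, 0.23 for PSMA4 and 0.28 for PSMA5. In the beta ring they were 0.51 for PSMB1, 0.53 for PSMB4, 0.62 for PSMB5, 0.34 for PSMB6 and 0.46 for PSMB7, so that all 3 standard catalytic subunits were further up in 769-P. Among the ATPases they were 0.58 for PSMC2, 0.28 for PSMC3, 0.33 for PSMC4, 0.45 for PSMC5 and 0.36 for PSMC6. Among the other cap genes they were 0.50 for PSMD1, 0.26 for PSMD4, 0.35 for PSMD6, 0.45 for PSMD13 and 0.20 for PSMD14. Among the chaperones they were 0.33 for PSMD10, 0.39 for PSMG1 and 0.51 for PSMG2. The inhibitor PSMF1 (-0.25) fell further in 769-P. PSMC3IP (-0.97) did not fall, and its estimate was smaller in 769-P (0.24, not called) than in CAKI-1 (1.21). Of the 21 further up, 18 passed under every alternative that kept all libraries and set no fold minimum (not PSMA4, PSMC6 and PSMD14), and 16 without each library in turn (not these 3, PSMD4 or PSMD10). PSMC3IP passed in both kinds of alternative, and PSMF1 did not.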

How the results depend on the processing

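In 769-P, 33 of the 34 rises (not PSMA7) and 1 of the 2 falls (not PSME3IP1) passed under every alternative that kept all libraries and set no fold minimum, and in CAKI-1 12 of 17 rises (not PSMB2, PSMC3, PSMC4, PSMD14 or PSMD5) and both falls. With at least 1.5-fold, 8 members were higher and 0 lower in 769-P, 2 and 0 in CAKI-1, and 1 differed each way. The share of all genes passing that fold minimum was not computed, so these counts have no background beside them. By edgeR 1 was lower in 769-P, and with upper-quartile scaling 4 were lower in CAKI-1. Libraries with the same replicate number showed little shared deviation (correlation -0.088 in 769-P and 0.061 in CAKI-1). With 2 libraries per condition this cannot tell whether the samples were handled in pairs. With the replicate block, 35 members were higher in 769-P, 16 in CAKI-1, 18 differed up and 1 down, and the CAKI-1 call of PSMC3 and the difference of PSMF1 were lost (adjusted p = 0.051 each). Fits within a line without 1 library left a single library in a condition. The 769-P rises of PSMA1, PSMA2, PSMA6, PSMA7, PSMC6, PSMD2, PSMD5, PSMD7, PSMD8, PSMD11, PSMD12 and PSME2 lost their call in some such fit. So did the fall of PSME3IP1. The log2 fold change then ranged from 0.61 to 0.72 for PSMD11 and from 0.13 to 0.16 for PSMA7. In CAKI-1 none of these fits called any gene. Under each scaling the all-gene median shifted by less than 0.1. Group medians with median centering, quantile normalization and upper-quartile scaling were, in 769-P, 0.40, 0.43 and 0.41 (cap), 0.10, 0.11 and 0.10 (assembly) and 0.16, 0.18 and 0.17 (activators and inhibitor), and for the core 0.41 and 0.42 (median, upper quartile). In CAKI-1 they were 0.06, 0.07 and 0.05 (core), 0.16, 0.16 and 0.15 (cap) and 0.35, 0.35 and 0.33 (activators and inhibitor), and 0.01 for assembly with the upper quartile. By edgeR the activators and inhibitor had 0.24 in 769-P and the cap 0.19 in CAKI-1, and the core without PSMB10 had 0.50 in 769-P. Leaving out libraries gave core 0.44 to 0.51, cap 0.43 to 0.48 and assembly 0.11 to 0.21 and activators and inhibitor 0.20 to 0.24 in 769-P, and core 0.06 to 0.14, cap 0.20 to 0.21, assembly -0.02 to 0.14 (0.12 without the second library with BCAA) and activators and inhibitor 0.32 to 0.38 in CAKI-1. Values that changed sign were all uncalled: in 769-P PSMD9 (-0.03 centred, -0.02 upper quartile, -0.01 thinned, -0.09 to 0.14 without a library), and in CAKI-1 PSMA7 (-0.01 upper quartile), PSMB1 (-0.02, -0.03 and -0.04 in the 3 scalings), and without a library PSMB4 (-0.08 to 0.02), PSMB7 (-0.07 to 0.01), PSMD9 (-0.17 to 0.06) and PSMD10 (-0.02 to 0.14). The causes were not tested.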
